A study of Mus musculus with 6 samples.

Results

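Transcripts of 10 genes of transforming growth factor beta (TGF-beta) and bone morphogenetic protein (BMP) signalling were examined in mouse embryonic fibroblasts with and without Asciz. The genes were the ligands Tgfb1, Tgfb2, Tgfb3 and Bmp4, the receptors Tgfbr1, Tgfbr2 and Bmpr1a, and the target genes Id1, Id2 and Id3. The probes were found by the target name that the array gives each probe, ignoring case (TGFB1, TGFB2, TGFB3, BMP4, TGFBR1, TGFBR2, BMPR1A, ID1, ID2 and ID3), which returned 19 of 45281 probes. Of these, 15 were bright enough to be tested, including at least 1 probe of every gene. The fibroblasts were single-passage MEF cultures, taken at embryonic day 12.5 and grown in medium with fetal bovine serum. Of the 6 cultures, 3 were Asciz+/+ (wild type) and 3 were Asciz-/- (knockout), all on a C57BL/6 genetic background, and each culture is a separate replicate, since the series design counts 3 embryos per genotype. Asciz, now named Atmin, encodes a transcription factor with zinc fingers, and the series asks what changes in fibroblast transcripts without it. Each culture was measured on 1 whole-genome bead array, and levels are given as normalized log2 intensity, on which a difference of 1 is a doubling of brightness.

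Both ligand families act as dimers that bring together type I and type II receptor kinases at the cell surface. The activated type I receptor phosphorylates Smad proteins, which enter the nucleus with Smad4: the TGF-beta receptors mainly use Smad2 and Smad3, and the BMP receptors Smad1, Smad5 and Smad9. Id1, Id2 and Id3 are direct targets of the BMP branch in many cell types, and their products bind E proteins and keep basic helix-loop-helix factors off DNA. In fibroblasts TGF-beta is best known for driving matrix production and the contractile state. It is made as a latent complex and fetal bovine serum also carries TGF-beta and BMP activity, so transcript levels of the ligands do not measure the active ligand in a dish.

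The cultures and arrays set the precision of what follows. Between 17580 and 18794 probes per array were detected, and all 12 fibroblast markers examined were measured on every array. Atmin was lower in the knockout cultures: its brightest probe read 8.70, 8.87 and 8.77 in wild type and 6.93, 6.95 and 6.47 in knockout cultures. The means differed by -1.99 (SE 0.16) with a limma adjusted p = 0.00646. That call was lost without wild-type replicate 1 (adjusted p = 0.0562), wild-type replicate 2 (adjusted p = 0.0573) or wild-type replicate 3 (adjusted p = 0.0752), at differences from -2.02 to -1.96. The sources used here do not place its probes relative to the deleted part. By Xist, at 8.20 against 4.32 to 4.37 elsewhere, wild-type replicate 1 was XX, and the remaining 5 cultures were XY. The array of knockout replicate 3 was the least like the others, correlating with them across probes at 0.979 on average, where the remaining 5 had averages of 0.985 to 0.989. It was the lowest of the 6 arrays for 25.4% of all tested probes and the highest for 23.3%, the most of any array in both directions.

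None of the 15 tested probes passed an adjusted p of 0.05, where 0.0439% of all 18221 tested probes did (8 probes). Their adjusted p lay between 0.790 and 1.00 by limma, and none had an unadjusted p under 0.05, against 7.53% of all probes. In none did the knockout and wild-type values stand apart without overlap, against 14.1% of all probes. Over the 10 genes, by the brightest probe of each, 5 differences were below 0 and 5 above, with a median of -0.01, beside -0.01 over the brightest probes of all 10535 named genes. The standard errors ran from 0.12 for Tgfbr1 to 0.39 for Id1, so the size of change that could be seen was not the same for each gene.

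**Figure D1:**
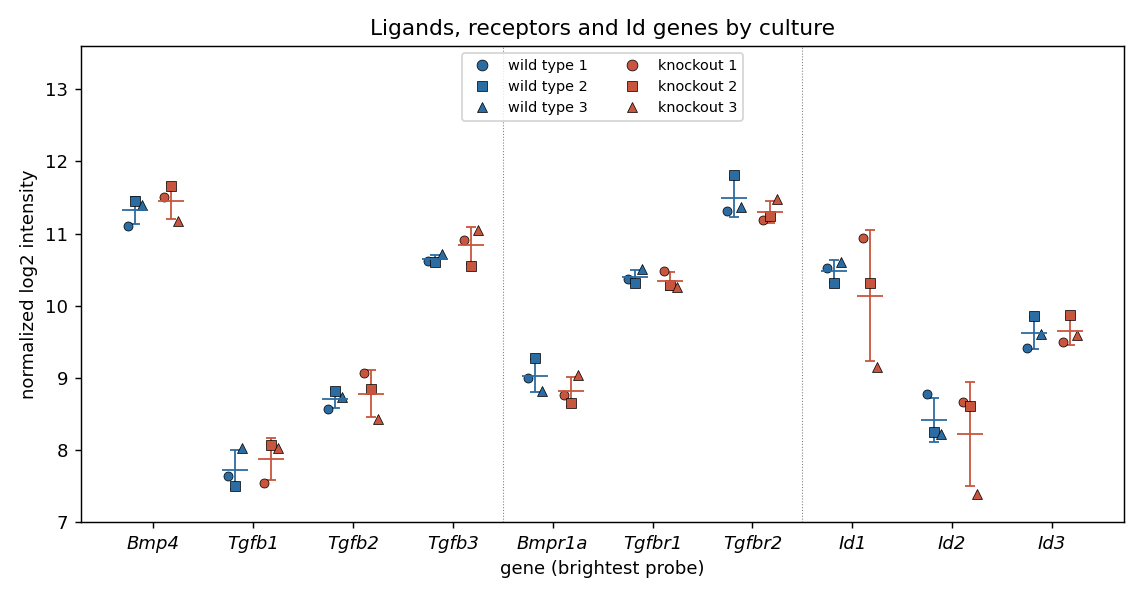
Normalized log2 intensity (vertical axis) of the brightest probe of each gene (horizontal axis) in each of 3 wild-type and 3 knockout cultures, with the mean (horizontal bar) and SD (error bar) of each group. The groups overlap for all 10 genes, and knockout replicate 3 (red triangle) lies apart for Id1 at 9.15 and Id2 at 7.40. Heights of different genes are not comparable, since each probe has its own brightness.

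The 3 TGF-beta ligand genes did not differ between genotypes beyond the spread of the cultures. Tgfb1 encodes the isoform made most widely and by immune cells, and Tgfb2 and Tgfb3 the isoforms with prominent roles in embryonic mesenchyme, palate and heart. Tgfb1 read 7.64, 7.51 and 8.03 in wild type and 7.54, 8.07 and 8.03 in knockout cultures. The 2 groups covered almost the same range. The difference was 0.15 (SE 0.20, 95% confidence interval -0.30 to 0.60, limma adjusted p = 0.879).

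Tgfb2 stood at 8.57, 8.82 and 8.74 in wild type and at 9.07, 8.84 and 8.43 in knockout cultures. Knockout replicates 1 and 3 formed the extremes, so the wild-type values lay inside the knockout range. The difference was 0.07 (SE 0.18, interval -0.35 to 0.48, limma adjusted p = 0.949). For Tgfb3 the wild-type cultures were close together, at 10.62, 10.61 and 10.71, and the knockout cultures lay at 10.92, 10.55 and 11.05. Knockout replicates 1 and 3 were above all wild-type cultures and knockout replicate 2 below them. This was the ligand difference farthest from 0, at 0.19 (SE 0.15, interval -0.16 to 0.54, limma adjusted p = 0.797). With single arrays left out it ran from 0.088 without knockout replicate 3 (limma adjusted p = 0.923) to 0.33 without knockout replicate 2 (unadjusted p = 0.0451, adjusted p = 0.637), and array weights gave 0.036.

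Bmp4 encodes a BMP ligand that patterns limb, skin and skeletal mesenchyme. Its bright probe read 11.10, 11.46 and 11.40 in wild type and 11.51, 11.66 and 11.17 in knockout cultures. The lowest value was that of the XX wild-type culture and the next lowest that of knockout replicate 3. The difference was 0.13 (SE 0.17, interval -0.26 to 0.52, limma adjusted p = 0.883). A second, dimmer probe gave 6.77, 7.09 and 7.30 against 6.96, 7.15 and 7.05. All 3 knockout values lay within the wild-type range, and the difference was -0.0015 (SE 0.16, interval -0.36 to 0.36). Over the brightest probes of the 4 ligands, all 4 differences were above 0, from 0.07 to 0.19, but scaling the arrays to a common median turned Tgfb1 to -0.044 and Tgfb2 to -0.13. That scaling moved the median of all probes by -0.13, from -0.01 to -0.14, so that relative to all probes Tgfb1 and Tgfb2 still lay above the median. As fold changes, the intervals of the 4 brightest ligand probes ran from 0.786 at the lowest bound (Tgfb2) to 1.52 at the highest (Tgfb1). Changes within the interval of each probe are compatible with its values, and the bounds are not limits of detection.

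The receptor genes lay slightly lower in the knockout cultures, within the spread. Tgfbr2 encodes the type II receptor that binds TGF-beta, and Tgfbr1 the type I kinase that it activates. Tgfbr2 read 11.32, 11.81 and 11.37 in wild type and 11.19, 11.24 and 11.47 in knockout cultures. Knockout replicate 3 lay above wild-type replicates 1 and 3, and the other 2 knockout cultures lay below all wild-type cultures. The difference was -0.20 (SE 0.17, interval -0.58 to 0.18, limma adjusted p = 0.807), and without wild-type replicate 2, the highest array, it was -0.043.

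A dimmer Tgfbr2 probe, detected on all 6 arrays, stood at 5.88, 5.78 and 6.24 against 5.46, 6.26 and 5.65, a difference of -0.18 (SE 0.23). The other 2 Tgfbr2 probes were not detected on any array. Tgfbr1 was the steadiest of the 10 genes, with 10.38, 10.32 and 10.51 in wild type and 10.49, 10.29 and 10.26 in knockout cultures. Its 6 values spanned 0.25. The difference was -0.06 (SE 0.12, interval -0.34 to 0.23, limma adjusted p = 0.934), which as a fold change is an interval of 0.788 to 1.17. Without wild-type replicate 3 it was -0.00027, and without knockout replicate 1 it was -0.13.

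Further Tgfbr1 probes lay at or near background. A probe detected on 1 wild-type and 2 knockout arrays gave 0.11 (SE 0.17), opposite in sign to the bright probe, and the remaining 2 were detected on 1 array each and not tested. Bmpr1a encodes a type I receptor for BMPs. Its brighter probe read 9.00, 9.27 and 8.82 in wild type and 8.76, 8.65 and 9.04 in knockout cultures. Knockout replicate 3 was again the highest knockout value and reached into the wild-type range. The difference was -0.21 (SE 0.16, interval -0.59 to 0.17, limma adjusted p = 0.790), and with single arrays left out it ran from -0.32 without knockout replicate 3 to -0.093 without wild-type replicate 2. The second Bmpr1a probe had 8.09, 8.23 and 8.11 against 7.85, 8.10 and 8.02, a difference of -0.15 (SE 0.12, interval -0.43 to 0.13).

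Whether the receptor values overlapped depended on the scale. In the unnormalized brightness Tgfbr2 read 3288.2, 3071.7 and 3053.2 intensity units in wild type and 2698.1, 2230.5 and 2241.5 in knockout cultures. On this scale all 3 knockout cultures lay below all 3 wild-type cultures. The brighter Bmpr1a probe had 748.9, 577.4 and 596.3 against 563.8, 408.9 and 457.7 units, also without overlap. Unnormalized brightness carries the overall brightness of each array, and 6.67% of all tested probes were lower without overlap on that scale, against 0.335% that were higher.

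Median scaling likewise separated the genotypes for 3 receptor probes, both of Bmpr1a and the bright one of Tgfbr2. There, however, 12.9% of all probes were lower without overlap and 1.74% higher. Under that scaling the differences were -0.39 for the brighter Bmpr1a probe (unadjusted p = 0.0393, limma adjusted p = 0.588) and -0.28 for Tgfbr2, of which -0.14 was the median of all probes. With quantile normalization and in the submitters' normalized values, which keep the same order of arrays, no receptor probe separated the genotypes.

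**Figure D2:**
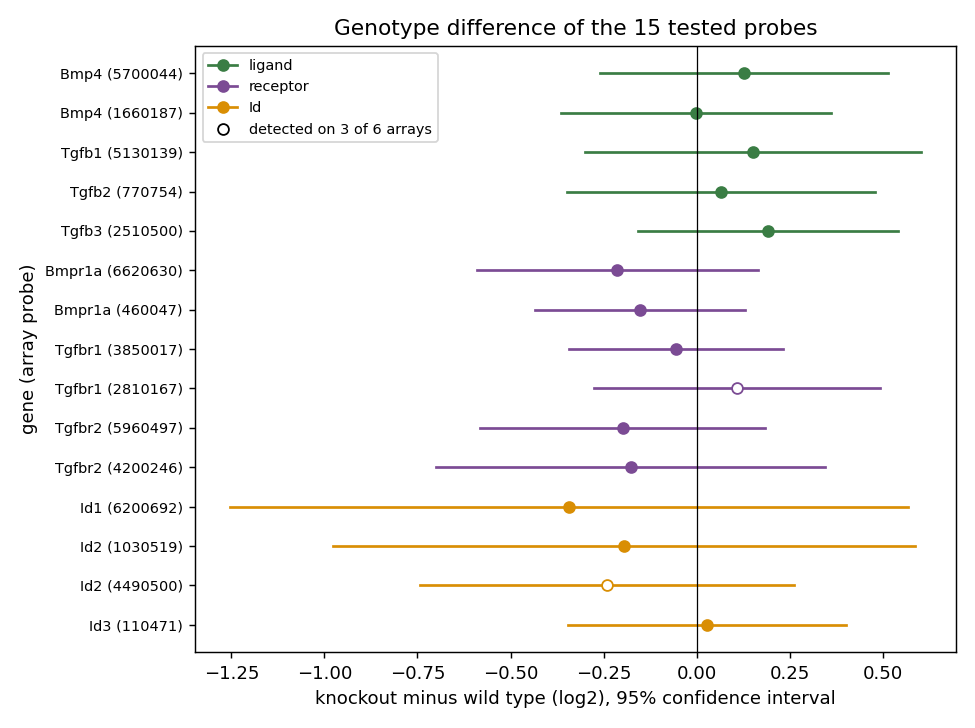
Difference between knockout and wild-type means on the log2 scale (horizontal axis) with its 95% confidence interval from limma for each of the 15 tested probes (vertical axis, array probe number in brackets), coloured by role. Every interval spans 0, and those of Id1 (-1.25 to 0.57) and the bright Id2 probe (-0.98 to 0.59) are the widest.

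Id1 and Id2 varied more between cultures than the ligands, the receptors and Id3 did, and mainly through 1 array. Id1, Id2 and Id3 encode small helix-loop-helix proteins without a DNA-binding region, which hold back differentiation in muscle, bone and neural precursors. Id1 read 10.52, 10.31 and 10.60 in wild type and 10.94, 10.32 and 9.15 in knockout cultures. Knockout replicate 1 was the highest of the 6 arrays and knockout replicate 3 the lowest. The SD was 0.15 among wild-type and 0.91 among knockout cultures (n = 3 each), and the difference was -0.34 (SE 0.39, interval -1.25 to 0.57, limma adjusted p = 0.861). In unnormalized brightness knockout replicate 3 had 487.2 units and the other 5 arrays 1111.7 to 2278.7, while the standard error over the beads of this probe was between 2.91% and 3.97% of its brightness on each array.

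Id2 stood at 8.77, 8.25 and 8.23 in wild type and at 8.66, 8.61 and 7.40 in knockout cultures. Here too knockout replicate 3 was the lowest, and the other 2 knockout cultures lay inside the wild-type range. The difference was -0.20 (SE 0.34, interval -0.98 to 0.59, limma adjusted p = 0.917). A dim Id2 probe, detected on 2 wild-type and 1 knockout arrays, had its lowest value in the same culture, at 4.35, and differed by -0.24 (SE 0.22).

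Without knockout replicate 3 the sign turned for Id1, to 0.15 (adjusted p = 0.890), and for the bright Id2 probe, to 0.22 (adjusted p = 0.798). The dim Id2 probe kept its sign, at -0.075 without knockout replicate 3 and -0.0076 without it and wild-type replicate 1. Without it and the XX wild-type culture the values were 0.17 for Id1 and 0.39 for the bright Id2 probe, the latter with an unadjusted p of 0.0396 and a limma adjusted p = 0.851. Over the 5 remaining arrays Id1 spanned 0.63 and Id2 0.54, in place of 1.79 and 1.37 over all 6.

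Id3 did not follow Id1 and Id2. It read 9.42, 9.86 and 9.60 in wild type and 9.49, 9.87 and 9.60 in knockout cultures, and knockout replicate 3 lay in the middle of the range. The groups matched closely, with a difference of 0.03 (SE 0.16, interval -0.34 to 0.40, limma adjusted p = 0.979).

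**Figure D3:**
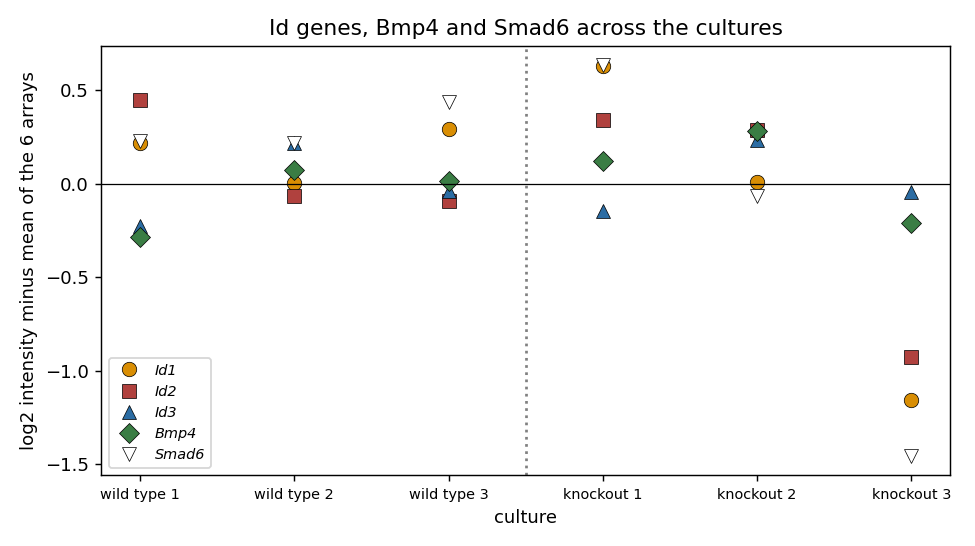
Normalized log2 intensity minus the mean of the 6 arrays (vertical axis) for the brightest probes of Id1, Id2, Id3, Bmp4 and the inhibitory Smad gene Smad6 in each culture (horizontal axis). In knockout replicate 3 Id1 lies at -1.16, Id2 at -0.92 and Smad6 still lower, whereas Id3 lies at -0.04 and Bmp4 at -0.21.

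The position of knockout replicate 3 was set against all probes after its values were seen. Id1 lay 1.16 below the next lowest array there, a gap that 0.285% of all tested probes matched or exceeded, and Id2 lay 0.83 below, a gap that 0.741% reached. Among 57 tested genes of the pathway lists described below, 18 were lowest in this culture, or 31.6%, beside 25.4% of all probes. A gap of at least 0.8 was found for 6 of the 57, or 10.5%, beside 0.812% of all probes. That cut lies just under the gap of Id2, and the culture, the direction and the lists were chosen with values of these data known. The 57 are the brightest probes of their genes, unlike all probes, so these shares are a description and not a test. In the other direction 13 of the 57 were highest in this culture, or 22.8%, and 1, the target gene Hey1, lay at least 0.8 above all other arrays, which 0.648% of all probes did. The widest gap below the other arrays was that of Smad6, which encodes a BMP-induced inhibitory Smad, at 5.89 against 7.28 to 7.98. Atoh8, a helix-loop-helix gene known as a BMP target, stood at 4.54 against 5.66 to 6.46, the activin antagonist Fst at 9.34 against 10.39 to 11.20, and the divergent ligand Gdf15 at 7.84 against 8.87 to 9.69.

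The remaining pair with such a gap below the other arrays were Bmp5, a BMP ligand, and Snai1, a repressor of epithelial genes. The BMP antagonist Nog came next, at 4.43 against 5.20 to 6.26, with a gap of 0.77. Id4, in contrast, read 7.68 in this culture, inside the range of 7.43 to 8.70 of the others. The target gene Msx1 lay inside the range of the others as well, at 8.33 against 4.59 to 8.86. Knockout replicate 3 is 1 array of 1 culture. Whether its overall distance from the other arrays has a part in these values was not tested.

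The probes most like each Id gene over the 6 arrays were sought by the root mean square difference of log2 values, each centred on its own mean. For Id1 they were Tinagl1 (0.05), Plpp1 (0.09) and Map6 (0.09). All 3 were lowest in knockout replicate 3, and Id2 itself was at 0.27 from Id1, where the median over all probes was 0.58. For Id2 they were Capzb (0.08), Fgf7 (0.09), a fibroblast growth factor that acts on epithelium, and Cavin2 (0.12). For Id3 they were Tm9sf4 (0.05), the dim Tgfbr1 probe near background (0.05) and Huwe1 (0.05). For Bmp4 they were Ccnt1 (0.02), Icmt (0.06) and Ccdc125 (0.06). The values are not scaled, so distances grow with the spread of a gene, and the median over all probes was 0.48 for Id2, 0.25 for Id3 and 0.26 for Bmp4. With 6 arrays and 18221 probes, near matches of this kind are easily found.

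The sequences before the starts of Id2 and Id3 are shown because these genes differed in how they varied across the cultures. Both are given as the 250 bases before the RefSeq gene start on build GRCm38.p6, 5′ to 3′ on the strand of the gene. Capitals mark GGCGCC, a GC-rich element that Smads of the BMP branch can bind, and CAGAC or its reverse complement GTCTG, which holds the Smad-binding box. The 2 motifs do not overlap each other, and each was searched on both strands.
Id2, chr12:25096093-25096342, minus strand: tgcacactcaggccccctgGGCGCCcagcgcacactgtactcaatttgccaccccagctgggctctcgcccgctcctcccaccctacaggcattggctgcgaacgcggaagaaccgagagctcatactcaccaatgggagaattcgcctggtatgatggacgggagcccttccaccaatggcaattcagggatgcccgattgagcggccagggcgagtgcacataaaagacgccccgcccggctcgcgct
Id3, chr4:136143572-136143821, plus strand: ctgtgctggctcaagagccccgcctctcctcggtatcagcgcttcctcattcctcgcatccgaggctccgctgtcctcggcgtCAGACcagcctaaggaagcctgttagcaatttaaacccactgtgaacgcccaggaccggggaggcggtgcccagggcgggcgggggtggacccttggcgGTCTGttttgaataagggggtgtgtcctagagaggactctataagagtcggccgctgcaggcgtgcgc
The Id2 window held 1 GGCGCC and 0 CAGAC, and the Id3 window 0 GGCGCC and 2 CAGAC. Of 32851 windows of the same length, 9.6% held GGCGCC and 42.2% held CAGAC. Promoter entries matched 8 of the 10 genes, and Id1 and Tgfb3 had no entry. Of the 8, 3 held GGCGCC (Id2, Bmpr1a and Tgfbr1) and 4 held CAGAC (Id3, Tgfb2, Tgfbr1 and Tgfbr2). For Tgfbr1 the 2 motifs lay in windows of different starts. The ligand genes Tgfb1 and Bmp4 held neither in this window. Whether these motifs have a part in the measured levels was not tested.

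Other genes of the pathway were described from 6 lists, with 75 genes in all and 57 tested. Over all probes 0 of the 57 passed the adjusted p of 0.05 by limma, where 0.0475% of 10535 genes did, and 5 had an unadjusted p under 0.05, or 8.77%, beside 7.72% of genes. Of the 57 differences, 30 were below 0 and 27 above, with a median of -0.01. The genotypes did not overlap for 9 of the 57, beside 2572 of 18221 probes (14.1%).

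Among other ligands, 8 of 15 were tested, 4 below and 4 above 0, and 0 had an unadjusted p under 0.05. The smallest p were those of Bmp5 (-0.47, SE 0.29), Gdf10, a BMP3-related ligand (-0.91, SE 0.57), and the inhibin subunit gene Inha (0.21, SE 0.16). Of the other receptors 8 of 9 were tested. The co-receptor genes Eng, for endoglin (-0.59, SE 0.23, unadjusted p = 0.0334, adjusted p = 0.643), and Tgfbr3, for betaglycan (-0.42, SE 0.16, unadjusted p = 0.0346, adjusted p = 0.644), had the lowest values.

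Eng read 8.31, 8.33 and 8.42 in wild type and 8.22, 7.82 and 7.25 in knockout cultures, and Tgfbr3 7.48, 7.89 and 7.54 against 7.46, 7.15 and 7.06. In both, all knockout cultures were below all wild-type cultures, which 7.47% of all probes shared. The activin type I receptor gene Acvr1b stood at 0.25 (SE 0.14).

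Of the signal-transducing Smads 4 of 6 were tested and 0 had an unadjusted p under 0.05, with -0.20 (SE 0.13) for Smad2, -0.20 (SE 0.14) for Smad3 and 0.08 (SE 0.11) for Smad1. Among inhibitors 15 of 19 were tested, 8 below and 7 above 0. Twsg1, which encodes a secreted modulator of BMP binding to chordin, had the smallest p of the 6 lists.

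Twsg1 read 11.35, 11.62 and 11.34 in wild type and 10.88, 11.11 and 10.72 in knockout cultures. All knockout cultures were below all wild-type cultures, as for 7.47% of all probes. The difference was -0.54 (SE 0.15, interval -0.88 to -0.19, unadjusted p = 0.00715, limma adjusted p = 0.523). Bmper, for another secreted BMP modulator, stood at 0.30 (SE 0.14) and Fst at -0.67 (SE 0.39). The adjusted p of both were above 0.05.

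Of the other target genes 16 of 19 were tested, 8 in each direction. Hey1, a helix-loop-helix repressor that responds to Notch and BMP, read 6.14, 6.48 and 6.49 in wild type and 7.17, 6.78 and 7.98 in knockout cultures. All knockout values were above all wild-type values, as for 6.65% of all probes. The difference was 0.94 (SE 0.29, interval 0.28 to 1.60, unadjusted p = 0.0113, limma adjusted p = 0.564). Tsc22d1, known as a TGF-beta-stimulated gene, stood at 0.32 (SE 0.13) and the cyclin-dependent kinase inhibitor gene Cdkn2b, a TGF-beta target, at 0.32 (SE 0.15). The difference farthest from 0 in this list was that of Msx1, at 1.63 (SE 0.98, interval -0.64 to 3.91, limma adjusted p = 0.734).

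Genes known as TGF-beta targets in fibroblasts lay on both sides of 0. The matricellular genes Thbs1 and Ccn2 had -0.42 (SE 0.31) and -0.05 (SE 0.11), the matrix gene Tgfbi -0.41 (SE 0.36), the collagen gene Col1a1 -0.16 (SE 0.20), Snai1 -0.44 (SE 0.25) and the contractile gene Tagln 0.35 (SE 0.22). The probe of smooth muscle actin, Acta2, ranked between 2 and 6 in brightness among all probes of each array, and so near the top of the scale its difference of -0.02 (SE 0.11) is not read as stability. Of the partners of Id proteins and their binding factors, 6 of 7 were tested, 2 below and 4 above 0, with Tcf12 at -0.18 (SE 0.13), Myog at 0.27 (SE 0.22) and Twist2 at 0.13 (SE 0.16). Myod1, the muscle-determining factor whose activity Id proteins restrain, was not tested, as it was detected on fewer than 3 arrays.

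**Figure D4:**
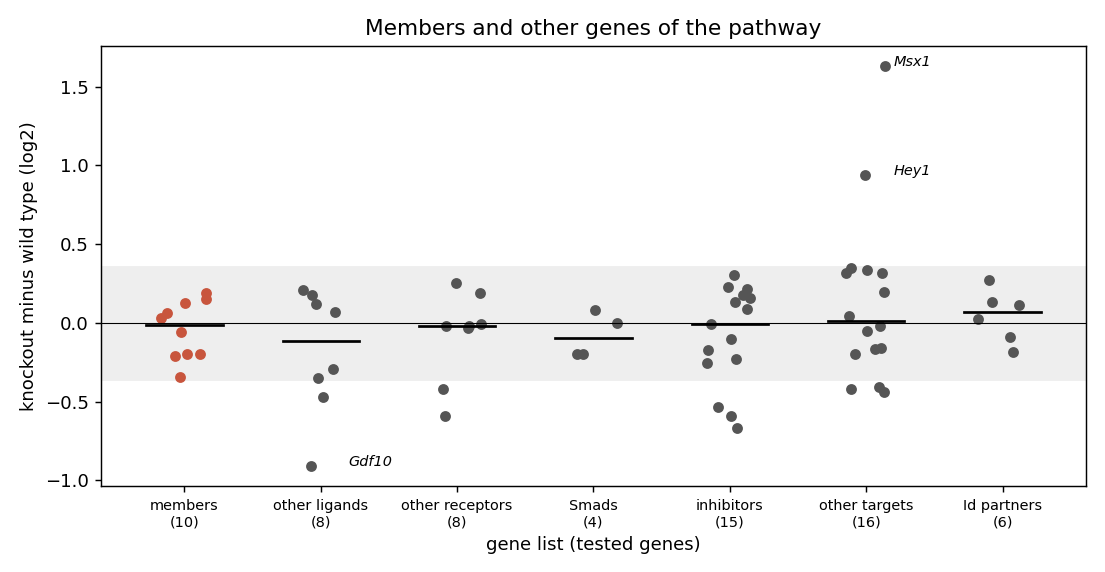
Difference between knockout and wild-type means on the log2 scale (vertical axis) for the brightest probe of each gene, by list (horizontal axis, number of tested genes in brackets), with list medians as black bars. The grey band holds the middle 90% of all tested probes, and all 10 members lie inside it, from -0.34 to 0.19.

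Markers of other cell types are given beside these values, since in bulk RNA fewer cells of a type and less RNA per cell cannot be told apart. None of those tested passed the adjusted p of 0.05 by limma. Over the brightest probes of all 10535 named genes 0.0475% did, and 7.72% had an unadjusted p under 0.05. Of 14 macrophage markers 10 were tested and all 10 were below 0 (median -1.08), with 0 past the adjusted p and 8 at an unadjusted p under 0.05. Their summed level was 10.15 to 11.03 in wild type and 9.21 to 9.72 in knockout cultures, and the defining markers Csf1r, C1qa and Tyrobp were detected on fewer than 3 arrays. Of 18 skeletal muscle markers 14 were tested and 13 were above 0 (median 0.72), with 0 past the adjusted p and 11 at an unadjusted p under 0.05. Their summed level was 12.20 to 12.65 in wild type and 12.74 to 13.11 in knockout cultures.

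All 8 tested chondrocyte and osteoblast markers were below 0 (median -0.39), with summed levels of 12.90 to 13.17 and 11.65 to 12.69, and Runx2 was not among those tested. Endothelial cells also express Eng, and their markers had summed levels of 8.87 to 9.81 and 9.55 to 10.65, with 4 of 8 tested, 3 of them above 0, and Pecam1, Cdh5, Kdr and Tie1 detected on fewer than 3 arrays. Epithelial markers had 6 of 8 tested, 4 of them above 0 (median 0.17), at 9.46 to 10.08 and 9.57 to 10.31. All 5 tested neural markers were above 0 (median 0.45), at 10.80 to 11.28 and 11.28 to 11.64. An unadjusted p under 0.05 by limma was found for 2 chondrocyte and osteoblast, 2 neural, 1 endothelial and 0 epithelial markers. The summed levels of the macrophage, muscle, chondrocyte and osteoblast, and (by a narrow margin) neural markers did not overlap between genotypes, and those of the endothelial and epithelial markers did. Of all tested probes 14.1% did not overlap, a share over single probes and not over such sums.

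In knockout replicate 3, where Id1 and Id2 were lowest, the average of the fibroblast markers was the highest of the 6 arrays. It was 10.72, beside 10.02 and 10.09 in the other knockout cultures and 10.16 to 10.52 in wild type. The markers did not move together. Among them Lum, for a matrix proteoglycan, read 9.53 there against 6.86 to 8.36 elsewhere, and the collagen gene Col3a1 9.28 against 6.89 to 8.49. The proteoglycan gene Dcn (11.76 against 10.18 to 10.99) and the surface marker Thy1 (12.64 against 11.17 to 11.78) were also highest there. In the other direction, S100a4 (7.26 against 8.13 to 9.32) and Vim (13.08 against 13.11 to 13.35) were lowest there. Pdgfra, Fn1, P4hb and Prrx1 were neither highest nor lowest. The average of the endothelial markers was highest in this culture too, at 7.44 beside 6.35 to 7.09 elsewhere. Its muscle markers averaged 8.25, beside 7.88 and 8.29 in the other knockout cultures, and its macrophage markers 5.81, beside 5.46 and 5.51. Its chondrocyte and osteoblast markers averaged 7.16, beside 7.20 and 6.38, but moved in different directions. Col2a1 was lowest there, at 10.21 against 11.96 to 12.66, and Matn1 highest, at 6.87 against 4.38 to 6.02. These averages weigh each gene alike, unlike the summed levels above. Its epithelial markers averaged 6.55, beside 6.45 to 7.18 on the other arrays, and its neural markers 8.36, beside 8.85 and 8.19. The part of any of these cell types in the ligand, receptor and Id values was not tested.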

How the data were processed

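Biotin-labelled RNA of 6 cultures was hybridised to MouseWG-6 bead arrays, per the labels and the file headers. The authors deposited a table of mean bead intensity per probe, exported without normalization by GenomeStudio version 1.6.0, per the file headers, with bead SD, the count of beads per probe, and a detection score as a fraction from 0 to 1. 24 of its 48 measurement columns were not used. A deposited normalized table holds a log-like score, and the submitters' processing notes name lumi. Its array medians were all 7.13, and its slope against log2 intensity was 1.01 between 10 and 12 and 0.571 between 6 and 7, so these are uncentred single-array levels whose direction is settled and whose scale for dim probes stays unknown. The deposited series matrix, read as log2, repeated the normalized table, with all 45281 sets of values equal to 5 decimals under other identifiers, and was not used further.

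Intensities were corrected and quantile-normalized with neqc (offset 16, log2) in limma (version 3.58.1, under R 4.3.3), with 1 minus the detection score as detection p. A probe was kept where 3 or more of the 6 arrays had a detection p below 0.05, which left 18221 of 45281. The difference of knockout from wild type was fitted with lmFit and eBayes, and two-sided p-values were adjusted by Benjamini-Hochberg over the kept probes, with calls at 0.05. Standard errors and 95% intervals are the moderated ones. The fit was also run on simulated data with planted changes larger than any member difference, so that run does not bear on the members. Probe levels are not compared between genes.

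Names came from the array, updated through RefSeq (assembly GRCm38.p6): 27400 probes matched a symbol and 8300 a synonym. For listed genes the brightest kept probe was used. Every member probe is accounted for; other pathway genes named are the 3 with the smallest p per list, and any named beside them, and those named for knockout replicate 3, were picked with their values in view. The members and lists were themselves chosen with earlier results of these data known. Replicate numbers are shared by the genotypes, and the sample titles do not say whether they pair the cultures. The deviations of same-numbered cultures from their group means correlated at 0.22, -0.19 and -0.21. With 3 cultures per genotype such values cannot settle a pairing, and the main fit took the cultures as unpaired.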

Additional observations from a re-analysis of the deposited data

How the results depend on the processing

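Under 18 alternatives to the main processing, 0 member probes and 0 of the 57 pathway genes passed the adjusted p of 0.05 in each, including the fit with the replicate number as a block (0 and 0). With that block 6 probes passed over all genes in place of 8, and Atmin kept its call (-1.99, adjusted p = 0.0418 by limma). The count over all probes was 4 without background correction, 4 in the submitters' normalized values, 4 without a filter on dim probes, 2 with the XX pattern as a covariate and 12 with array weights, and 2 to 7 with single arrays left out, lowest without wild-type replicate 1 or 3 (2 each) and 5 without wild-type replicate 2. Only wild-type replicate 1 was XX, so the XX covariate in effect leaves that array out and is not a separate adjustment for sex. The call of the brightest Atmin probe was lost without a filter (-1.99) and with the XX covariate (-2.03). Its values with single arrays left out lay between -2.08 and -1.85.

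Signs turned for several member probes, none of them called. Among them was Id1, whose main difference of -0.34 was the farthest from 0 of the 15 tested probes. Median scaling gave -0.044 for Tgfb1, -0.13 for Tgfb2 and -0.12 for Id3. The XX covariate gave -0.0038 for Tgfb2, -0.076 for Id3 and -0.019 for the dim Tgfbr1 probe. Array weights gave 0.072 for the dim Bmp4 probe and 0.038 for the dim Tgfbr2 probe. Without wild-type replicate 1 and knockout replicate 3 together, Id1 stood at 0.17, Id2 at 0.39, Id3 at -0.044 and the dim Tgfbr1 probe at -0.0026. With single arrays left out the ranges that crossed 0 were -0.74 to 0.15 for Id1, -0.41 to 0.22 for Id2, -0.080 to 0.14 for Id3, -0.078 to 0.24 for Tgfb2, -0.14 to 0.12 for the dim Bmp4 probe and -0.018 to 0.24 for the dim Tgfbr1 probe. Ranges that kept their sign but spread by more than 1.5 times were 0.041 to 0.32 for Tgfb1, 0.018 to 0.26 for the bright Bmp4 probe, 0.088 to 0.33 for Tgfb3, -0.29 to -0.043 for the bright Tgfbr2 probe, -0.42 to -0.012 for the dim one, -0.13 to -0.00027 for the bright Tgfbr1 probe, -0.32 to -0.093 and -0.21 to -0.081 for the 2 Bmpr1a probes and -0.44 to -0.075 for the dim Id2 probe. The cause was not tested. Dim probes lie close to background, where differences are compressed, and 4 member probes were too dim to test.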
